A study of Mus musculus with 10 samples.

Results

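The 6 genes followed here, in RNA from mouse platelets at 2 ages, encode serotonin, nucleotide and dense-granule transporters and the proteoglycan serglycin. They are the rows with the symbols Slc18a2, Slc6a4, Slc17a9, Abcc4, Slc35d3 and Srgn, 6 of the 53819 gene symbols counted in each library. The set was chosen with earlier results of these data known. The P7 group (5 libraries, with the replicate letters A, B, C, E and I) came from mice read here as 7 days old, and the adult group (5 libraries, A, B, C, G and H) from mice of unstated age. Sex, strain and genotype are not given in the sources used for this work, and no treatment is named for either group. Whether each library stands for a single animal or a pool is not given by the labels, so p-values measure the spread over these libraries alone, and that spread may be technical.

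Dense granules are small acidic compartments, related to lysosomes, that store serotonin, ADP, ATP, polyphosphate and calcium and release them when a platelet is activated. Platelets do not make their serotonin but take it from plasma through the serotonin transporter SERT (Slc6a4), and the vesicular monoamine transporter VMAT2 (Slc18a2) then moves it into the granule against a proton gradient. The vesicular nucleotide transporter VNUT (Slc17a9) uses the voltage set up by the same proton pump to load nucleotides, and the ABC transporter MRP4 (Abcc4) moves cyclic nucleotides and other organic anions. SLC35D3, of the nucleotide-sugar transporter family, is needed for dense granules in mice. Serglycin (Srgn) is the proteoglycan whose sulfated sugar chains hold basic granule proteins such as platelet factor 4.

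The libraries held 19431863 to 25029931 counts each. All 15 platelet markers were tested, with 6 higher and 2 lower at P7. For comparison, 13.8% of all 8198 genes tested were called higher at P7 and 13.9% lower (edgeR, adjusted p under 0.05). Platelet markers summed to 59611 to 78235 CPM (depth-normalised counts, using TMM factors) at P7 and 49600 to 60805 CPM in adults. Erythroid markers summed to 986 to 2562 CPM at P7 and 586 to 1777 CPM in adults, with 5 higher and 0 lower of 14 tested, and monocyte markers to 2240 to 3452 and 2907 to 6076 CPM, with 0 higher and 1 lower of 3, most of it Lyz2. Neutrophil markers summed to 4.02 to 8.39 CPM at P7 and 1.62 to 2.05 CPM in adults (1 higher of 2 tested), T and NK markers to 7.11 to 10.6 and 10.6 to 19.1 CPM (1 lower of 4), and B cell markers to 7.31 to 22.02 and 2.98 to 5.43 CPM (1 higher of 2). The markers Ly6g, S100a8 and Cd3e averaged under 1 CPM in both groups, but some others of these lists did not. Under 1 CPM in every library were 10 of 14 neutrophil, 8 of 12 T and NK and 2 of 8 B cell markers. For the called genes, mean CPM (P7 against adult) was 1.53 against 0.424 for Prtn3 and 3.74 against 9.71 for Nkg7. For Ighm it was 7.16 against 2.58. The part of these cells in the results on the 6 genes was not tested. In such bulk samples, fewer cells of a type and less RNA per cell cannot be told apart.

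Transcripts of 4 of the 6 genes were plainly present in platelets of both ages, Srgn and Slc6a4 in large amounts. Serglycin mRNA was lower at P7, 2377 ± 234 CPM against 3076 ± 438 CPM in adults (SD, n = 5 each), and was the only member to pass the test across all genes, narrowly. Abcc4, at 14.7 ± 4.57 CPM against 23.0 ± 4.25 CPM, differed by a larger factor but missed the threshold, and no difference was called for Slc6a4 or Slc18a2. Slc35d3 was scarce and came almost wholly from P7 libraries, while Slc17a9 was close to undetected at either age. The 4 genes that passed the filter on low counts had 0 higher and 1 lower call in edgeR's quasi-likelihood test at an adjusted p under 0.05, where 27.7% of all 8198 genes tested were called, 13.8% higher and 13.9% lower. The median log2 fold change of these 4 genes was -0.23, and that of all genes tested was 0.05.

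**Figure D1:**
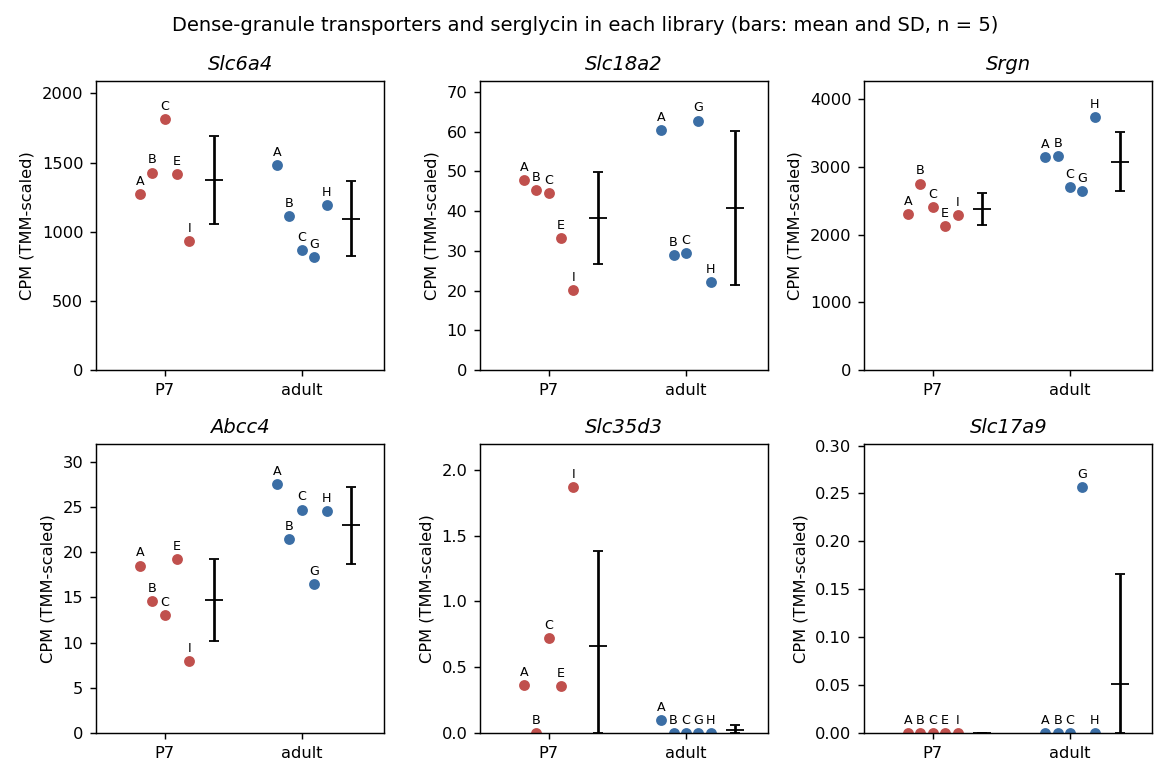
Level of each of the 6 genes in CPM (TMM-scaled, linear axis from 0) in each P7 (red) and adult (blue) library, with its replicate letter, and black bars for the mean and SD of 5 libraries (cut at 0 where the SD is larger than the mean). The Srgn points of P7 lie mostly under the adult ones, Slc6a4 and Slc18a2 points overlap, and Slc35d3 and Slc17a9 stay under 2 CPM throughout.

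Levels of the 6 genes spanned a wide range. Per kilobase of annotated exon, Srgn stood highest, at 1356 ± 134 CPM per kb at P7 and 1755 ± 250 CPM per kb in adults (SD, n = 5 each). Slc6a4 came next, at 491 ± 113 and 392 ± 96.3 CPM per kb. The order went on with Slc18a2, at 10.1 ± 3.07 and 10.8 ± 5.09 CPM per kb, and Abcc4, at 2.57 ± 0.797 and 4.01 ± 0.742 CPM per kb. Within each age these 4 genes did not overlap with their neighbours in this order. The ranges of Slc35d3 and Slc17a9 both began at 0. At P7, Slc35d3 lay above Slc17a9 in 4 libraries, and both had 0 counts in P7 B. In adults each had counts in only 1 library, so they could not be ordered there. Among 49948 genes with an annotated length, Srgn ranked 45 to 56 in the P7 libraries and 38 to 46 in the adult ones by this measure, and Slc6a4 ranked 117 to 183 and 128 to 190. The transporter that brings serotonin into the platelet was thus among the most abundant platelet transcripts, and the transporter that brings it into the granule ranked between 1278 and 2256 over the 10 libraries.

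Slc6a4, the serotonin transporter of the plasma membrane, stood at 1275, 1428, 1815, 1416 and 935 CPM in P7 A, B, C, E and I. In adults A, B, C, G and H it was at 1485, 1113, 869, 818 and 1192 CPM. Only P7 C lay above every adult library, and adults C and G lay below every P7 library, so the groups overlapped. The log2 fold change, P7 over adult, was 0.33 ± 0.19 (SE; 95% interval -0.08 to 0.73) and did not pass (edgeR quasi-likelihood, Benjamini-Hochberg adjusted p = 0.222 over all genes tested). With levels scaled to the summed platelet markers it was 0.02, and with the trend of counts on transcript GC content removed, an alternative chosen after seeing the data, it was 0.10.

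For Slc18a2, the granule's serotonin loader, the P7 libraries A, B, C, E and I held 47.8, 45.4, 44.6, 33.1 and 20.1 CPM. The adult libraries A, B, C, G and H held 60.4, 29.0, 29.5, 62.8 and 22.1 CPM. The adult values split widely, with A and G above every P7 library and the other three adults at 22.1 to 29.5 CPM, and P7 I was the lowest of all 10. The difference was within this spread, at a log2 fold change of -0.09 ± 0.31 (SE; 95% interval -0.75 to 0.57; edgeR adjusted p = 0.854), an interval that holds changes in either direction. Its sign turned when P7 I, adult A or adult G was left out, at 0.062, 0.080 and 0.086. Slc18a2 shares 99 annotated exon bases with an antisense gene, Gm29261, which had 0 counts in every library.

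Abcc4, the organic anion transporter, was counted at 18.5, 14.7, 13.1, 19.3 and 7.98 CPM in P7 A, B, C, E and I. Adults A, B, C, G and H stood at 27.6, 21.5, 24.7, 16.4 and 24.6 CPM. Of the adults, 4 libraries lay above every P7 library, and adult G lay inside the P7 range. Abcc4 had the largest log2 fold change of the 4 tested members, -0.64 ± 0.24 (SE; 95% interval -1.15 to -0.14), and missed the threshold of edgeR's test (adjusted p = 0.0546; range over 22 alternatives 0.00696 to 0.113). It passed in 8 of these alternatives, among them DESeq2, limma-voom, the fit without adult G and the fit without P7 E. Of all genes tested, 41.7% had a larger absolute log2 fold change.

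Srgn, the serglycin core protein gene, was at 2309, 2753, 2411, 2122 and 2292 CPM in P7 A, B, C, E and I. It was at 3145, 3165, 2706, 2636 and 3727 CPM in adults A, B, C, G and H. There were 3 adult libraries above every P7 library and 4 P7 libraries below every adult one, with P7 B inside the adult range. Srgn fell by 0.37 ± 0.13 on the log2 scale (SE; 95% interval -0.64 to -0.10; edgeR adjusted p = 0.0403), and the range of adjusted p over 22 alternatives was 0.00115 to 0.349. The call was lost in 13 of them, without P7 A, C, E or I or adult A, B or H among these, at log2 fold changes of -0.38 to -0.30. With the GC trend removed the change was -0.19 and did not pass (adjusted p = 0.349), and with scaling to platelet markers it was -0.67 and passed. No member that passed the filter had groups without overlap, 0 of 4, where 19.8% of all genes tested and 29.8% of those averaging 20 CPM or more did.

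**Figure D2:**
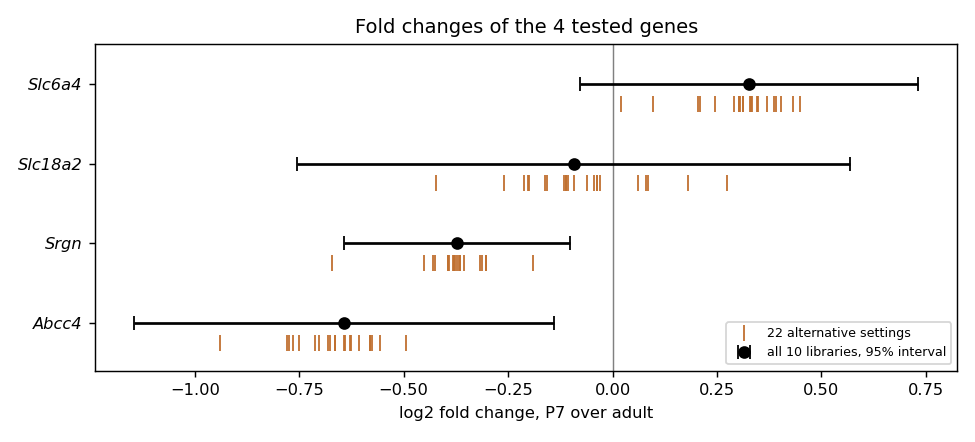
Log2 fold change of P7 over adult for Slc6a4, Slc18a2, Srgn and Abcc4, with all 10 libraries (black points, 95% interval of edgeR's fit) and in 22 alternative settings (orange ticks). Srgn and Abcc4 stay below 0 in every setting shown, Slc6a4 stays above 0, and Slc18a2 falls on both sides.

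Part of the movement between scalings was shared by all genes. Scaling to the platelet markers put the median log2 fold change of all genes at -0.25 against 0.05 with TMM factors, and the other scalings put it between 0.03 and 0.11. Each scaling applies a single factor per library to all genes, so values relative to that median stay nearly fixed by construction. They say nothing about how stable the 4 genes or their calls are over the 5 scalings. Slc6a4 stood 0.27 to 0.29 above the median. Relative to it, Slc18a2 stood at -0.17 to -0.14, Srgn at -0.42 and Abcc4 at -0.69 to -0.67.

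Slc35d3 and Slc17a9 did not pass the filter on low counts. Slc35d3 had 9, 0, 18, 9 and 41 counts in the P7 libraries, in letter order. Adult A had 2 counts and the other adults had 0. Summed over libraries this made 77 counts at P7 and 2 in adults, a ratio of 35.0 per scaled count total (95% exact binomial interval 9.37 to 294, covering counting error only). The 4 P7 libraries with counts lay above every adult library, and P7 B lay with the adults at 0. The same split was seen in the number of gene symbols with any count, which was 13942 to 14965 in P7 A, C, E and I, 12454 in P7 B and 12270 to 13138 in the adults. Over the 20865 genes tested with no filter on low counts, the median log2 fold change was 0.24. The part of this shift in the Slc35d3 counts was not tested. On the scale of log2 CPM with a prior count of 2, the mean difference was 2.24, at a two-sided exact permutation p of 0.0476 that was not adjusted and of which 0.0079 is the smallest value possible. It was 1.75 without P7 I (exact permutation p = 0.0873), the library with 41 of the 77 counts. Without adult B, C, G or H it was 2.18 to 2.21 (exact permutation p = 0.0635 for each). When every gene with a count was tested, Slc35d3 passed edgeR's test at a fitted log2 fold change of 4.74, which depends on the prior count (adjusted p = 0.00222).

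Slc17a9, the nucleotide loader, had 0 counts in 9 libraries and 6 counts in adult G, or 0.257 CPM. The upper limit that a count of 0 allows, taken as 3 counts of the scaled total, was 0.120 to 0.172 CPM for a single library and 0.0258 CPM over the 5 P7 libraries together. No shared exon with another gene is annotated for it, and no difference between the ages was detectable at this depth. The other members of its family gave few counts too. Slc17a5, the lysosomal sialic acid carrier, stood at 1.07 CPM in the P7 group and 1.11 in the adult one and did not pass. The other 7 SLC17 genes averaged under 0.1 CPM at both ages, 4 of them with 0 counts in every library.

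Ratios of counts within a library do not depend on scaling. Of the 6 ratios among the 4 tested genes, only Slc6a4 to Abcc4 had groups that did not overlap. It was 68.8, 97.4, 139, 73.5 and 117 in P7 libraries A to I, in letter order, and 53.8, 51.9, 35.1, 49.8 and 48.5 in adults A to H. Its P7 median was 1.96 times the adult median. The ratio was singled out after its values were seen and has no test. The share of ratios without overlap among pairs of all genes was not computed. Of single genes tested, 19.8% had groups without overlap. The ratio of Srgn to Slc6a4 was 1.33 to 2.45 at P7 and 2.12 to 3.23 in adults, with overlap. That of Slc6a4 to Slc18a2 was 26.7 to 46.5 at P7, inside the adult range of 13.03 to 53.9.

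P7 I was the lowest P7 library for Slc6a4, Slc18a2 and Abcc4 and the highest for Slc35d3. The same library had the lowest platelet marker sum of the P7 group, 59611 CPM, and the highest erythroid sum of all 10, 2562 CPM. Their part in its values was not tested. Without P7 I the log2 fold change was 0.43 for Slc6a4 (adjusted p = 0.0859), -0.49 for Abcc4 (0.0833) and -0.37 for Srgn (0.0541), each from edgeR.

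The genes with the most similar profiles over the 10 libraries were sought among named genes averaging 20 CPM or more, by the root-mean-square (RMS) difference of log2 CPM after centring each gene. For Slc6a4, whose own RMS about its mean was 0.35, these were the lysosomal hexosaminidase gene Hexa at 0.13, the ATP-gated channel gene P2rx1 at 0.14 and Tmco1 at 0.15. For Slc18a2, with a spread of 0.54, they were Coro1c at 0.32, Rspry1 at 0.35 and Fam214b at 0.37. Abcc4, with a spread of 0.50, was followed most closely by the kinesin gene Kif3c at 0.21, with the poly(A) polymerase gene Papola at 0.25. Srgn, with a spread of 0.24, was matched by Kifc3 at 0.087, by the collagen receptor gene Gp6 at 0.10 and by the calmodulin gene Calm3 at 0.10. Genes with little spread find close matches easily, and 1296 of 1926 genes lay within 0.5 of Srgn against 163 for Slc18a2.

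Among other carriers of monoamines and nucleosides and vesicular carriers, the clearest change was in the dopamine transporter gene Slc6a3, a relative of Slc6a4. Its level was 27.9, 28.4, 30.2, 36.1 and 12.1 CPM in P7 A, B, C, E and I, against 9.34, 3.18, 1.51, 6.80 and 5.21 CPM in adults A, B, C, G and H. Every P7 library lay above every adult one, and Slc6a3 rose by 2.37 ± 0.42 on the log2 scale (SE; edgeR adjusted p = 0.00109), a call kept in 22 of 22 alternatives. The count ratio of Slc6a4 to Slc6a3 was 39.2 to 77.1 at P7 and 120 to 576 in adults. This ratio was picked with the values of Slc6a3 seen and has no test, so its lack of overlap adds nothing to the call. Per kilobase Slc6a3 stayed far below Slc6a4, at 7.80 CPM per kb against 1.51 in adults. Slc22a3, a low-affinity organic cation transporter, went the other way, at 9.63 ± 2.12 CPM in P7 against 17.8 ± 7.87 CPM in adult libraries (SD, n = 5 each), with adults C and H inside the P7 range of 7.11 to 12.03 CPM. Slc22a3 fell by 0.88 ± 0.30 (SE; edgeR adjusted p = 0.0367) and kept its call in 13 of 22 alternatives. Of the 23 genes of this list 4 were tested, and 1 rose and 1 fell, where 13.8% of all genes tested rose and 13.9% fell.

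Among the other ABCC transporter genes, 1 was called. Abcc5, which encodes MRP5, another exporter of cyclic nucleotides, was at 109, 84.4, 120, 93.6 and 89.2 CPM in the P7 libraries, in letter order. The adult libraries had 38.4, 40.9, 41.8, 56.4 and 43.7 CPM. The groups did not overlap, and Abcc5 rose by 1.17 ± 0.16 on the log2 scale (SE; edgeR adjusted p = 1.54e-04), kept in 22 of 22 alternatives. The count ratio of Abcc5 to Abcc4 was 4.86 to 11.2 over the P7 libraries and 1.39 to 3.43 over the adults. This ratio was also picked after the values were seen. Abcc1 had a log2 fold change of -0.12 and did not pass, and the other 8 ABCC genes of the list were not tested, at a mean under 0.3 CPM in both groups. In this list of 10 genes, 1 of the 2 tested rose, against 13.8% of all genes tested, and the difference between Abcc5 and Abcc4 was not tested.

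**Figure D3:**
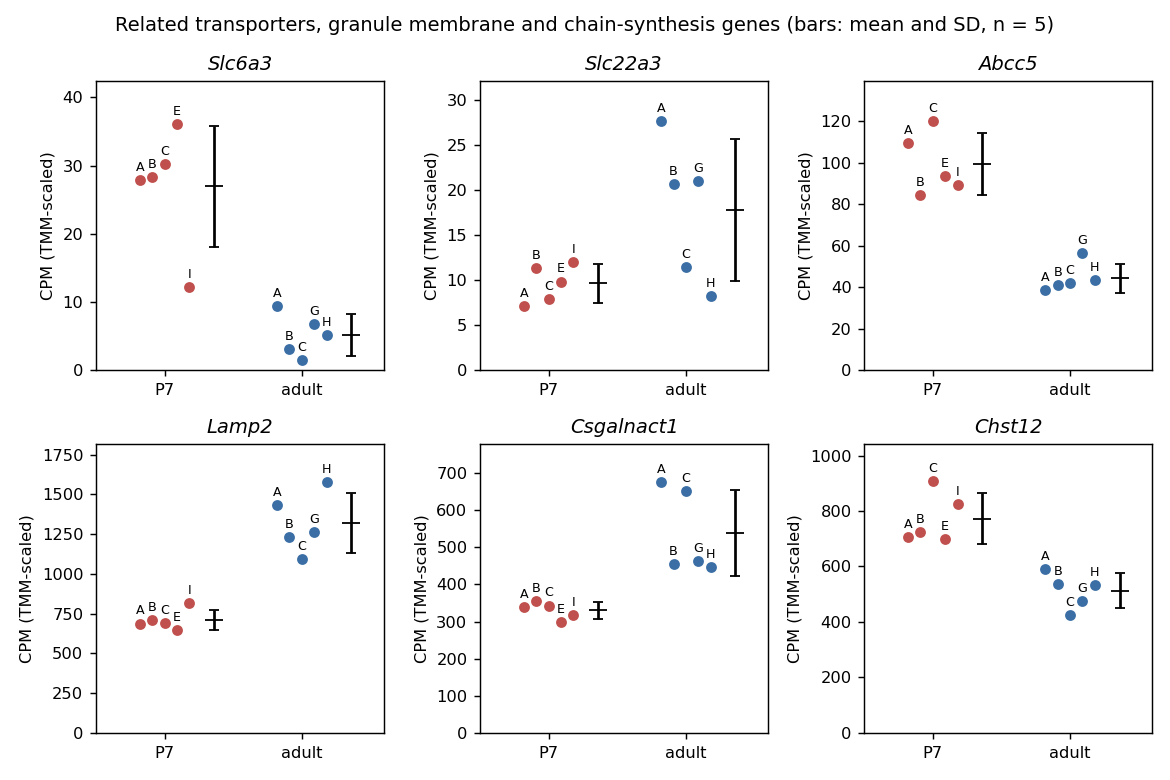
Level in CPM (TMM-scaled, linear axis from 0) in each P7 (red) and adult (blue) library, with replicate letters and black bars for the mean and SD of 5 libraries, for 6 related genes. Slc6a3, Abcc5 and Chst12 lie higher in every P7 library than in any adult one, Lamp2 and Csgalnact1 lower in every one, and Slc22a3 overlaps.

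In the list for serotonin synthesis, breakdown and receptors, 0 of 4 tested genes were called, among 14 listed. Of all genes tested, 27.7% were called. Those tested were the synthesis enzyme gene Ddc, Aldh2, and the transglutaminase genes Tgm2 and F13a1. No receptor, Tph or Mao gene was tested, so the list cannot speak to the sensing of serotonin. Ddc had a log2 fold change of 0.25 (edgeR adjusted p = 0.535). Tph1, the enzyme that starts serotonin synthesis outside the brain, had 0 counts in all 10 libraries. Maoa, which degrades serotonin, had a P7 mean of 0.160 and an adult mean of 0.200 CPM, and Htr2a, the platelet serotonin receptor gene, of 0.678 and 0.142 CPM, too few to be tested. Aldh2, the mitochondrial aldehyde dehydrogenase, was abundant, at 6103 ± 319 CPM at P7 and a log2 fold change of 0.08 ± 0.13 (SE). F13a1, the transglutaminase factor XIII A that can link serotonin to proteins, was at 906, 1073, 2168, 1123 and 397 CPM in the P7 libraries, in letter order, and at 1242 to 3632 CPM over the adults. Its log2 fold change of -0.93 ± 0.43 (SE) did not pass (edgeR adjusted p = 0.142), although it did so without P7 C, in DESeq2 and with scaling to platelet markers.

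The vacuolar proton pump sets up the gradient that both VMAT2 and VNUT depend on. Of 25 subunit and accessory genes 18 were tested, and 4 rose and 1 fell, where 13.8% of all genes tested rose and 13.9% fell. Those that rose were Atp6v0a1 and Atp6v0a2, alternative forms of the large membrane subunit, at 0.84 ± 0.27 and 0.72 ± 0.21, Atp6v1b2, of the ATP-binding part, at 0.79 ± 0.23 (SE), and Atp6v0d1 at 0.58. Atp6ap2, an accessory protein, fell by 0.57 ± 0.18 (SE). Of 22 alternatives, Atp6v0a2 kept its call in 19, Atp6v1b2 in 17, Atp6ap2 in 16, with -0.29 as its value nearest to 0, and Atp6v0a1 in 13. The median of the 18 log2 fold changes was 0.24 against 0.05 for all genes. With scaling to platelet markers, Atp6v0a1, Atp6v0a2 and Atp6v1b2 lost their calls, and Atp6v0a2 can share reads with an antisense gene.

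Of 17 genes of the granule membrane, its ion channels and polyphosphate synthesis 10 were tested, with 1 higher and 1 lower (27.7% of all genes tested were called). The median log2 fold change of these 10 was 0.32, against 0.05 for all genes tested. Lamp2, a lysosomal membrane protein also found on dense granules, ranged from 647 to 814 CPM in the P7 group, below all adults at 1095 to 1577 CPM. Lamp2 fell by 0.89 ± 0.13 on the log2 scale (SE; edgeR adjusted p = 2.10e-04), in 22 of 22 alternatives. The granule tetraspanin gene Cd63 had a log2 fold change of -0.73 that did not pass (edgeR adjusted p = 0.0588), while the related Lamp1 was at 0.12. Tpcn1, a calcium channel of endosomes and lysosomes, rose by 0.69 ± 0.23 (SE), a call kept in 12 of 22 alternatives. Nucleotide-sugar transporters, the family of Slc35d3, were 1 higher and 2 lower of 11 tested among 13, near the 27.7% called among all genes, with a median of -0.24. Slc35b3, a carrier of the sulfate donor PAPS, fell by 0.82 ± 0.17, Slc35d2, of the same subfamily as Slc35d3, fell by 0.78 ± 0.22, and Slc35c2 rose by 1.34 ± 0.48 (SE), from an adult mean of 0.453 CPM, a call kept in 6 of 21 alternatives.

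Of 33 genes for the synthesis of proteoglycan sugar chains 16 were tested, with 2 higher and 2 lower, near the 27.7% called among all genes. Their median log2 fold change was 0.53, against 0.05 for all genes tested. Uncalled genes averaging under 1 CPM in both groups were B4galt7, Chpf2, Ext1 and Ugdh, with positive fold changes, and Extl3, with a negative one. The list is not limited to enzymes or to the chains of serglycin, and also holds Ext1, Ext2 and the transporter genes Slc26a1 and Slc26a2. The most abundant of the called genes were Csgalnact1, which starts chondroitin chains, and Chst12, which adds sulfate to them. Csgalnact1 stood at 299 to 355 CPM in P7 libraries, against 448 to 677 CPM in adult ones, and fell by 0.70 ± 0.15 (SE; edgeR adjusted p = 0.00319), kept in 22 of 22 alternatives. Chst12 stood at 699 to 907 CPM in P7 libraries, against 424 to 592 CPM in adult ones, and rose by 0.59 ± 0.13 (SE; edgeR adjusted p = 0.00436). The call of Chst12 was lost in 3 of 22 alternatives, scaling to platelet markers and removal of the GC trend among them, and its lowest log2 fold change over all of them was 0.21. At lower levels, B3gat3, which completes the linker between core protein and chain, fell by 0.76 ± 0.24, and Chst11 rose by 1.04 ± 0.33 (SE). Of 21 alternatives, B3gat3 kept its call in 16 and Chst11 in 11.

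Other proteoglycan cores of the list were far less abundant than Srgn. The most abundant of them was Cd44, a surface receptor that can carry chains. It averaged 411 CPM at P7 against 572 CPM in adults and did not pass (log2 fold change -0.48). Of 16 cores 4 were tested, with 1 higher and 1 lower (27.7% of all genes tested were called). Aplp2, of the amyloid precursor family, fell by 1.11 ± 0.16 (SE), and Dcn, which encodes decorin of connective tissue, rose from 0 to 0.487 CPM over the adults to 0.516 to 1.61 CPM over the P7 libraries. Dcn had 10 to 40 counts in the P7 libraries, 10 in adult C and 0 in the other adults. Its log2 fold change was 2.81 to 7.64 over 21 alternatives, and its call was kept in 19. Among 11 genes for proteins known to bind serglycin, 4 were tested and 2 fell, where 13.9% of all genes tested fell. The chemokine precursor gene Ppbp fell by 1.57 ± 0.25 and the scarce Cxcl5 by 1.70 ± 0.32 (SE), while Pf4, whose product serglycin retains in alpha granules, had a log2 fold change of 0.05. The count ratio of Srgn to Pf4 was 0.157 to 0.237 at P7 and 0.213 to 0.320 in adults.

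**Figure D4:**
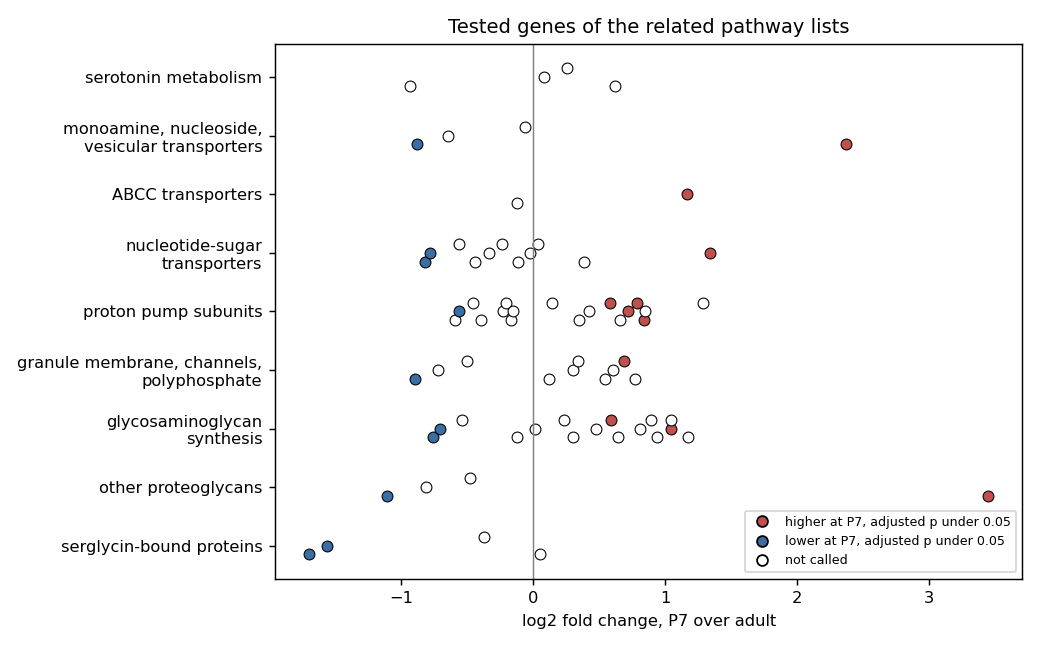
Log2 fold change of P7 over adult for each tested gene of 9 lists related to the dense granule and serglycin, red where higher and blue where lower at P7 at an adjusted p under 0.05, white where not called. Slc6a3 at 2.37, in the list of monoamine, nucleoside and vesicular transporters, and Dcn at 3.46, among other proteoglycans, lie farthest to the right. Dcn had at most 10 counts in any adult library.

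Mast cells and basophils also store monoamines by VMAT2 and hold serglycin. Their defining genes were scarce, with 9 of 12 listed markers under 1 CPM in every library, among them Kit, Fcer1a, Ms4a2, Cpa3 and Mcpt8. None of the 3 tested markers passed, and Gata2, which megakaryocytes also express, made up most of the sum of 70.1 to 90.3 CPM at P7 and 80.1 to 117 CPM in adults, with a log2 fold change of -0.22. The histamine enzyme gene Hdc, with a P7 mean of 2.97 and an adult mean of 4.89 CPM, had one of -0.72.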

How the data were processed

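The deposited values are raw counts per gene symbol, whole numbers with a different total in each library. Per the labels' protocols, 1 ng of RNA was amplified by SMARTer chemistry and Nextera XT libraries were made from 150 pg of cDNA and read from one end for 75 nt. The tools listed, with no role, per the submitters' processing notes are Salmon 1.5.2, featureCounts, Subread 2.0.1, STAR 2.7.9a and fastp 0.23.1. No source used here names the genome build or the use of strand, and coordinates are therefore left out. Counts carry no molecular identifiers, so intervals and floors from counts cover counting error only.

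Genes were kept by filterByExpr (minimum count 10, minimum total 15), normalised by TMM and fitted in edgeR 4.0.16 (quasi-likelihood F test, robust, limma 3.58.1, R 4.3.3), with age as the only term and Benjamini-Hochberg adjustment over 8198 genes. Calls are at an adjusted p under 0.05. Alternatives used DESeq2 1.42.0, limma-voom, other scalings and filters, and each library left out. The 2 genes that failed the filter were tested by an exact permutation of log2 CPM over 252 splits. Exon lengths, GC content and overlapping genes came from GENCODE M21 (GRCm38), matched by symbol, and levels per kilobase assume that the annotated exons are those expressed. The tests were checked on simulated data.

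Members, gene lists and rules were chosen with earlier results of these data known. Genes named were the 6 members, at most 4 called genes per list, by smallest p (for a list with no call, its 2 most abundant tested genes), and the 3 nearest profiles of each tested member, of which 1 is not reported here. Some other list members are named beside these for their role, and were chosen after their values were seen.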

Additional observations from a re-analysis of the deposited data

Results flagged for a closer look

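In each of 2 groups of 5 libraries, a single library held all the counts of a gene. For Slc17a9 in adults, adult G had 6 counts (0.257 CPM) and the others 0. For Slc35d3 in adults, adult A had 2 counts (0.0953 CPM) and the others 0. The gap to the nearest library divided by the range, Dixon's ratio, was 1 for both. With the other four libraries at 0 this ratio is 1 whatever the remaining value, so its critical value of 0.71 and the 5% of groups in which chance exceeds it say nothing here.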

How the results depend on the processing

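Each result was recomputed under 22 alternatives at most, all planned but the removal of the GC trend, chosen after seeing the data. The members called, 1 with all libraries, were 0 with library size only, upper quartile factors and the replicate block, 2 with platelet marker scaling, DESeq2, limma-voom and no filter, and 0 to 2 with single libraries left out. Srgn kept its sign throughout but lost its call with library size only (-0.30), upper quartile factors (-0.31), no filter (-0.39), the replicate block (-0.30), the same 6 libraries without it (-0.30) and the GC trend removed (-0.19); without single libraries it was -0.45 to -0.30. Abcc4 gained a call with platelet marker scaling (-0.94), DESeq2 (-0.66), limma-voom (-0.68), no filter (-0.66), letters A to C without the block (-0.70) and the GC trend removed (-0.78); without single libraries it was -0.78 to -0.49. Slc18a2 turned sign with the replicate block (0.27), with its 6 libraries unblocked (0.18) and without P7 I (0.062), adult A (0.080) or adult G (0.086), with a range without single libraries of -0.26 to 0.086. The unadjusted exact permutation p of Slc35d3, 0.0476 with all libraries, rose to 0.4 with letters A to C (1.48), where 3 against 3 libraries cannot reach 0.05, and to between 0.0635 and 0.0873 without P7 I or adult B, C, G or H; without single libraries the difference was 1.75 to 2.87. Slc6a4 and Slc17a9 changed no call. Without adult G, and in letters A to C, no count of Slc17a9 was left and no value was had. DESeq2, limma-voom and the block and GC fits gave no value for the 2 filtered genes. This left 16 alternatives for Slc17a9 and 18 for Slc35d3. The cause of these changes was not tested.

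The letters A, B and C occur at both ages, and the labels do not say what they mean. Deviations of same-lettered libraries correlated at -0.04, 0.06 and 0.01. None of these P7 libraries correlated best with the adult of its own letter, though P7 B came close, at 0.065 against 0.067 with adult A. So few pairs cannot decide whether same-lettered libraries share a preparation or batch. As a block the letters moved the calls among all genes from 1886 to 1416 in these 6 libraries.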
